A study of Homo sapiens with 12 samples.

Results

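Integrins and laminins are the receptor and ligand families through which cells hold on to basement membranes. Members were taken by symbol: protein-coding genes named ITGA or ITGB with the digits or letters of a subunit, and LAMA, LAMB or LAMC with 1 digit. The 37 members reported here, of 58302 genes counted, are 18 integrin alpha subunits, 8 integrin beta subunits and 11 laminin chains. The binding proteins and relatives ITGB1BP1, ITGB1BP2, ITGB3BP and ITGBL1 are not subunits and were left out. Of the 37 members, 23 had a mean of at least 20 counts per sample and were tested (10 alpha subunits, 5 beta subunits and 8 laminin chains). Of these 23, 21 were called in at least 1 of 9 comparisons. The share of all tested genes called in at least 1 comparison was not counted, so the 21 are not a result about these members.

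A laminin is a cross-shaped trimer of an alpha, a beta and a gamma chain, which is laid down outside the cell and polymerizes into the sheet to which nidogen, perlecan and type IV collagen are added. An integrin is a pair of an alpha and a beta subunit in the cell membrane. The alpha subunit largely sets the ligand (laminin, collagen, or proteins with an RGD motif such as fibronectin and vitronectin), and the beta subunit carries the signal to talin, kindlin and the actin cytoskeleton. In the developing neural tube, progenitors are anchored by their end feet to a laminin-rich basement membrane, and beta 1 integrins bind it.

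RNA was sequenced from neural progenitor cells (NPCs) derived from H1, an established human embryonic stem cell line. The cells were wild type (WT) or a double knockout (dKO) of KDM6A (UTX) and KDM6B (JMJD3), the demethylases that remove H3K27me3, a repressive histone mark. There were 6 groups of 2 samples: WT and dKO NPCs at passage 2 (NPC-P2), WT and dKO NPCs at passage 4 (NPC-P4), and WT and dKO cells after 28 days of differentiation from NPC-P2 (WT-D28 and dKO-D28). The day 28 medium lacked FGF2 and EGF and held added GDNF, BDNF and cAMP. The labels name passage 4, and passage 2 was taken from the study's text. The WT cells carried no deletion, and no transgene is named for them. The knockouts were made with donor DNA holding a puromycin cassette, and clones were selected with puromycin. Cre was used to remove the cassette from the JMJD3 knockout before UTX was deleted in the same way. In dKO cells the catalytic site was deleted, so transcripts of both genes were still counted: KDM6A was at 61.4 and 54.4 CPM in WT NPC-P2 and at 39.8 and 38.9 CPM in dKO NPC-P2, and KDM6B at 157 and 184 CPM against 155 and 159 CPM, and neither was called between the genotypes in any of the 3 comparisons of dKO with WT cells. These whole-gene counts therefore do not check the labels. As a model, all samples come from 1 parental line. NPCs were kept as floating neural spheres, whereas cells for day 28 were plated on Matrigel, itself a laminin-rich matrix, so time, loss of FGF2 and EGF, the added factors and attachment cannot be told apart at day 28. The labels do not say whether the 2 samples of a group are separate cultures, and p-values measure only the spread between these samples.

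Values are CPM, that is counts scaled to a common library size with the TMM normalization of edgeR, and a level compared between genes is given per kilobase of exon as well (RPKM). Total counts ran from 756942 in WT NPC-P2 sample 1 to 10601172 in WT-D28 sample 2, so that 3 counts correspond to between 0.302 and 3.92 CPM, and this floor covers counting error only. In the WT NPC-P2 pair, sample 1 was also lower than sample 2 in several members (ITGB1 346 and 540.4 CPM). The chi-square of the counts per degree of freedom was 11.3 between the dKO-D28 samples and 1.57 to 2.72 between the other pairs. The pluripotency genes POU5F1 and NANOG were at 0 counts in all 12 samples. The other 2 on that list, DPPA4 and LIN28A, were not. Together they had 131 and 115 CPM in WT NPC-P2 and 106 and 90.5 in dKO NPC-P2. At passage 4 they had 1.67 and 1.28 in WT and 34.4 and 37.8 in dKO NPCs. At day 28 they had 0.96 and 0.604 in WT and 46.3 and 86.3 in dKO cells. The 1 tested was called higher in dKO cells at passage 4 (5.43) and day 28 (6.26). Neural progenitor markers summed to between 3383 and 7545 CPM in all samples, and HES5 was at 0 in both dKO NPC groups. As these are bulk samples, a change in the share of a cell type and a change in RNA per cell cannot be told apart.

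In dKO cells 17 of the 23 tested integrin and laminin genes had the higher fitted value at passage 4 and 21 of 23 at day 28, and the laminin chains LAMA1, LAMB1 and LAMC1 and the fibronectin receptor subunit ITGA5 were the main cases. A gene was called at an edgeR adjusted p below 0.05 over all 13454 tested genes and a fold change above 2. At passage 2, 3 of 23 members were higher in dKO NPCs (ITGA1, LAMA2 and LAMB1) and 0 were lower, where 0.981% of all tested genes were called higher and 0.498% lower. At passage 4, 12 were higher and 4 lower, where 11% of all tested genes were called higher and 11.1% lower. At day 28, 11 were higher and 1 lower, where 12.4% were called higher and 11.7% lower. The count filter is a mean over all samples, so a gene high in 1 group can pass it. Most counts of ITGA1 lay in dKO NPC-P4 (466 and 538). Most counts of ITGB4 (92 and 217) and ITGB6 (175 and 250) lay in dKO-D28. ITGA9 passed the filter narrowly, at a mean of 22.2 counts. It held 68 counts in dKO-D28 sample 2 and at most 39 in any other sample, and it is among the higher calls at day 28. ITGA1 is among the higher calls at passages 2 and 4, and ITGB6 at passage 4 and day 28. ITGB4 is higher at day 28 and lower at passage 4. The shares of all tested genes rest on the same filter. The median log2 fold change of the 23 members was 0.52 at passage 2, 1.00 at passage 4 and 0.80 at day 28, and that of all tested genes was 0.02 or less in each. With the 2 members at 0 counts in a group set to their bound, the passage 2 median was 0.35 and the other 2 did not move. Leaving out a passage 2 library also moved the number of all tested genes called higher at passage 2. The passage 2 count of members depended on single libraries in the same way. It was 0 without WT NPC-P2 sample 1, 7 without WT NPC-P2 sample 2 and 0 without dKO NPC-P2 sample 2. By edgeR without adjustment of p, 1 member (ITGA2B) was lower at that fold threshold, and by DESeq2 0 were.

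**Figure D1:**
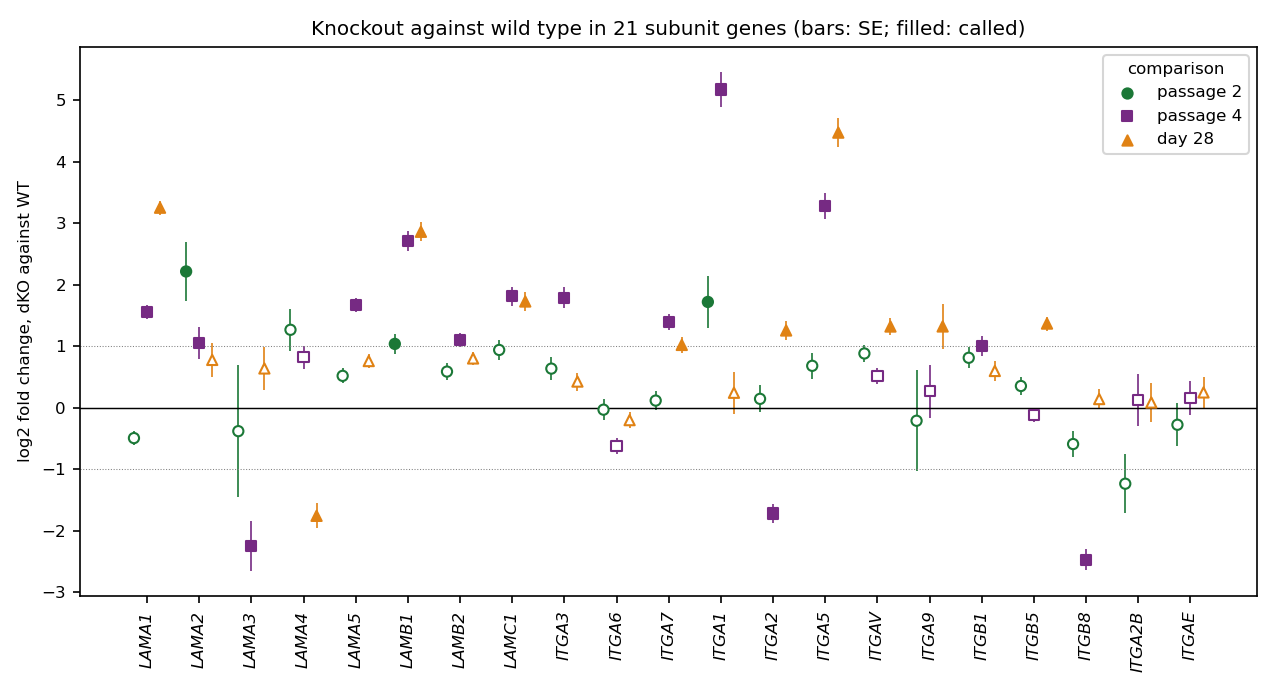
Log2 fold change of dKO against WT cells (y axis, log2 scale) for 21 tested subunit genes (x axis) at passage 2 (circles), passage 4 (squares) and day 28 (triangles). Bars are standard errors, filled symbols are called genes and dotted lines mark a 2-fold change. LAMB1 is filled at all 3 stages, while LAMA1 lies at -0.49 at passage 2 and at 3.25 at day 28. ITGB4 and ITGB6 are left out because a group in these comparisons has 0 counts.

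Among the laminin alpha chains, LAMA1 (ENSG00000101680, chr18:6941742-7117797 in hg38, minus strand) encodes the alpha 1 chain of the embryonic laminin. Its values were 294 and 274 CPM in WT NPC-P2, 209 and 192 in dKO NPC-P2, 87.2 and 86.6 in WT NPC-P4, 256 and 254 in dKO NPC-P4, 24.7 and 24.6 in WT-D28 and 217 and 253 in dKO-D28. Both WT-D28 samples lie far below every other sample, the WT NPC-P4 pair comes next, and the dKO groups overlap with neither. The log2 fold change of dKO over WT was 1.55 ± 0.11, adjusted p = 1.16e-08 at passage 4 and 3.25 ± 0.12, adjusted p = 5.04e-12 at day 28. At passage 2 it was -0.49 ± 0.12, adjusted p = 0.0294, a decrease that did not reach 2-fold. In WT cells LAMA1 fell by 3.52 on the log2 scale to day 28 (adjusted p = 1.13e-11) and by 1.70 to passage 4 (adjusted p = 2.15e-08). The same steps in dKO cells gave 0.23 ± 0.11 and 0.34 ± 0.11, and neither was called. Antisense transcripts overlap 11.1% of the exonic bases of LAMA1, and whether counting used strand is not given in the sources used here.

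LAMA5, the alpha 5 chain of the most widespread adult basement membranes, was the highest alpha chain per length (22.2 RPKM on average against 11.4 for LAMA1). Its values were 213 and 283 CPM in WT NPC-P2, 359.6 and 359 in dKO NPC-P2, 131 and 133 in WT NPC-P4, 414 and 427 in dKO NPC-P4, 285 and 268 in WT-D28 and 476 and 459 in dKO-D28. It was higher in dKO than in WT NPCs at passage 4 (1.67 ± 0.12, adjusted p = 1.02e-08), where the WT pair was the lowest of all groups. At day 28 the difference was 0.76 ± 0.11, adjusted p = 2.46e-05, below 2-fold. LAMA4, a chain best known from blood vessel walls and peripheral nerve, took another course, with 3.92 and 14.9 CPM in WT NPC-P2, 25.5 and 26.2 in dKO NPC-P2, 33.1 and 30.8 in WT NPC-P4, 56.5 and 56.2 in dKO NPC-P4, 42.5 and 38.8 in WT-D28 and 11.2 and 12.7 in dKO-D28. It rose in WT cells to day 28 (1.92 ± 0.29, adjusted p = 5.71e-05) and fell in dKO cells (-1.11 ± 0.26, adjusted p = 0.0112), a fall not called without either dKO NPC-P2 sample (adjusted p = 0.0782 and 0.107). It was lower in dKO-D28 than in WT-D28 cells (-1.76 ± 0.20, adjusted p = 1.78e-06) and was the 1 member called lower at that stage. From passage 2 to passage 4 LAMA4 rose in both genotypes (1.57 ± 0.31 in WT and 1.12 ± 0.22 in dKO NPCs). LAMA2, the alpha 2 chain of muscle and Schwann cell basement membranes, was low, with 1.31 and 5.96 CPM in WT NPC-P2, 21 and 18.4 in dKO NPC-P2, 12.7 and 13.6 in WT NPC-P4, 28.6 and 26.2 in dKO NPC-P4, 6.0 and 5.33 in WT-D28 and 12.4 and 7.33 in dKO-D28. It was higher in dKO NPCs at passage 2 (2.21 ± 0.47, adjusted p = 0.0177), where WT sample 1 held 1 count and sample 2 held 8. The passage 2 difference lost its call without WT NPC-P2 sample 1 (1.72, adjusted p = 0.178) and without either dKO NPC-P2 sample (adjusted p = 0.0799 and 0.114). At passage 4 it was higher as well (1.05 ± 0.26, adjusted p = 0.00322), with 0.99 without dKO NPC-P4 sample 1.

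LAMB1 and LAMC1, whose chains complete the embryonic trimer, were higher in dKO cells at passage 4 and day 28, as LAMA1 was. LAMB1 (ENSG00000091136, chr7:107923799-108003213, minus strand), the beta chain of the embryonic laminin, had 150.1 and 173 CPM in WT NPC-P2, 306 and 361 in dKO NPC-P2, 33.7 and 37.5 in WT NPC-P4, 238 and 231 in dKO NPC-P4, 25.2 and 24.8 in WT-D28 and 151 and 212 in dKO-D28. The dKO samples were above the WT samples of the same stage in all 3 comparisons without overlap. Its differences were 1.04 ± 0.16, adjusted p = 0.0025 at passage 2, 2.71 ± 0.16, adjusted p = 1.46e-09 at passage 4 and 2.86 ± 0.15, adjusted p = 4.57e-10 at day 28. The passage 2 value was 0.95 without WT NPC-P2 sample 1 and 0.91 without dKO NPC-P2 sample 2, and then not called. LAMB2, the beta chain of mature and synaptic laminins, had 164 and 145 CPM in WT NPC-P2, 211 and 249.6 in dKO NPC-P2, 172 and 172 in WT NPC-P4, 387 and 352 in dKO NPC-P4, 128 and 136 in WT-D28 and 215 and 245 in dKO-D28. It was called at passage 4 (1.11 ± 0.11, adjusted p = 8.44e-07), a call that correction for GC content and gene length took to 0.83, below 2-fold. LAMC1 (ENSG00000135862, chr1:183023420-183145592, plus strand), the gamma chain of nearly all laminins, was the highest member per exonic length at 45.4 RPKM on average, whereas with the canonical transcript length ITGB1 was the highest (140.1 against 48.4 RPKM). The values of LAMC1 were 223 and 330.2 CPM in WT NPC-P2, 508 and 567 in dKO NPC-P2, 200.4 and 206 in WT NPC-P4, 670.1 and 761 in dKO NPC-P4, 132 and 131 in WT-D28 and 489 and 383 in dKO-D28. Its difference was below 2-fold at passage 2 (0.94 ± 0.16, adjusted p = 0.00584) and above it at passage 4 (1.81 ± 0.15, adjusted p = 1.94e-07) and day 28 (1.73 ± 0.15, adjusted p = 2.01e-07). In WT cells LAMC1 fell to day 28 (-1.09 ± 0.16, adjusted p = 6.27e-05), a fall that was 0.76 without WT NPC-P2 sample 2 and then under 2-fold.

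LAMA3 and LAMB3, chains of the epithelial laminin that anchors skin and gut epithelium through the alpha 6 beta 4 integrin, were low. LAMA3, its alpha 3 chain, had 2.61 and 1.49 CPM in WT NPC-P2, 0.751 and 2.12 in dKO NPC-P2, 15 and 11.6 in WT NPC-P4, 2.81 and 2.7 in dKO NPC-P4, 5.04 and 4.02 in WT-D28 and 10.2 and 4.25 in dKO-D28. The WT NPC-P4 pair was the highest, and LAMA3 was lower in dKO than in WT NPCs at passage 4 (-2.25 ± 0.41, adjusted p = 2.61e-04). LAMB3, its beta 3 chain, stayed below the count filter with between 0 and 5.82 CPM.

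**Figure D2:**
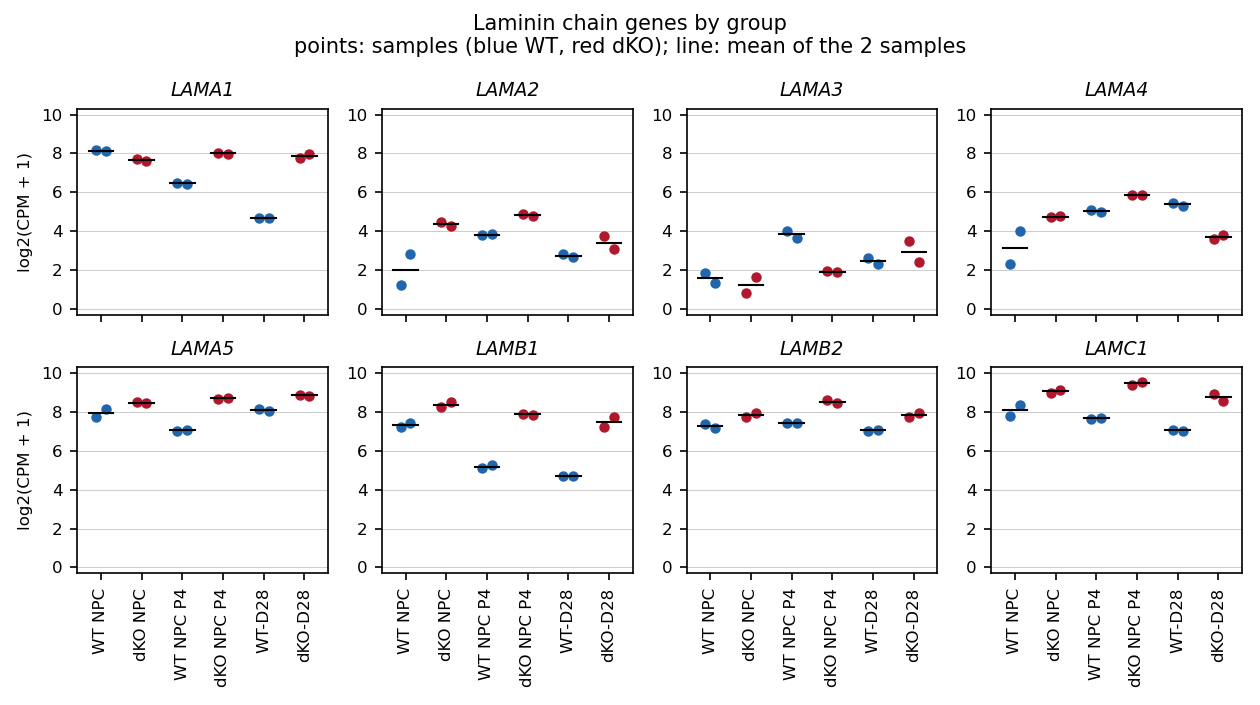
Expression of the 8 tested laminin chain genes as log2(CPM + 1) (y axis) in the 6 groups (x axis), with 1 point per sample and a line at the mean of the pair. In LAMA1, LAMB1 and LAMC1 the WT-D28 pair is lowest and each dKO pair lies above the WT pair of passage 4 and of day 28, while LAMA3 is highest in the WT NPC-P4 pair.

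The share of each alpha chain in the summed RPKM of the 5 alpha chains describes the mix of alpha chain transcripts. In WT NPC-P2, LAMA1 made up 54.5% and 44.6% and LAMA5 43.8% and 51.3% in samples 1 and 2. In WT-D28 cells LAMA1 was at 6.09% and 6.46%, LAMA5 at 77.8% and 78.1% and LAMA4 at 13.8% and 13.5%. In dKO-D28 cells LAMA1 was still at 27.8% and 32.1% and LAMA4 at 1.9% and 2.14%. The dKO groups thus kept a LAMA1 share between 27.8% and 32.1% over all 6 samples, whereas the WT groups ran from 6.09% to 54.5%. The WT NPC-P4 samples, at 29% and 29.3%, lay inside the dKO range. At passage 4 the LAMA1 share therefore did not separate the genotypes, although the CPM of LAMA1 did. LAMB1 took 25% and 30.6% of the beta chains in WT NPC-P2, 6.63% and 7.37% in WT NPC-P4 and 6.53% and 6.08% in WT-D28 cells. In the dKO groups LAMB1 was at 34.5% and 34.4%, 18.2% and 19.2% and 19.9% and 23.8%, and LAMB2 made up most of the rest in every sample. Shares depend on the length given to each gene. With the canonical transcript in place of all exonic bases, the LAMB1 share of WT NPC-P2 was 51.1% on average and that of WT-D28 cells 15.5%. These shares are descriptions without a test.

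**Figure D3:**
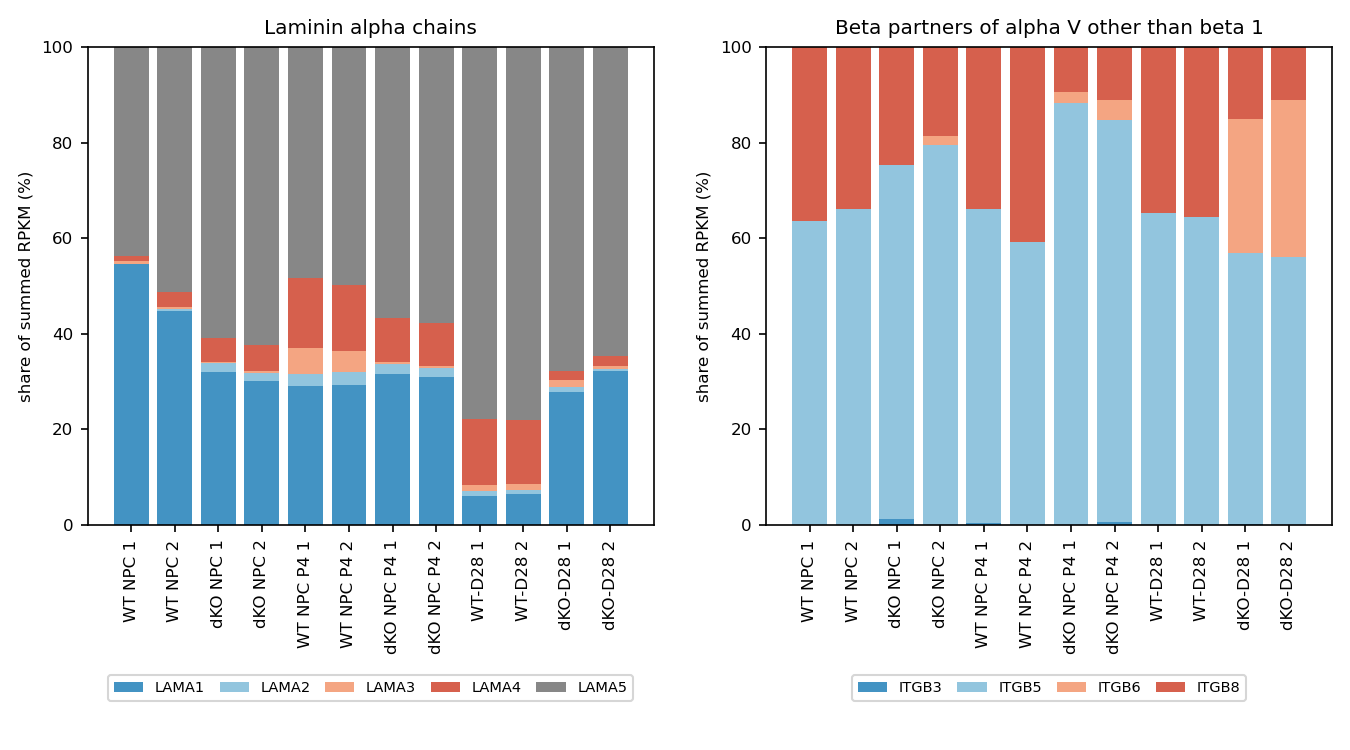
Share of summed RPKM (y axis, percent) in each of the 12 samples (x axis). The left panel holds the 5 laminin alpha chains, in which LAMA1 shrinks to 6.09% and 6.46% in the WT-D28 samples. The right panel holds the beta subunits other than beta 1 that can pair with alpha V, in which ITGB6 reaches 28% and 32.9% in the dKO-D28 samples and is 0 in the WT samples.

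Sequence 250 bases upstream of the RefSeq gene start was on hand for 26 of the 37 members (GRCh38.p14). LAMA1, ITGA3, ITGA7 and ITGB4 were among the members without it. The sequence is shown for 5 of the genes that the results turn on: LAMB1 and LAMC1, which were higher in dKO than in WT cells at passage 4 and day 28, ITGA5 and ITGB6, which were higher in dKO-D28 cells, and LAMA3, which was lower in dKO NPC-P4. Capitals mark matches, on either strand, to GGGCGG (the GC box bound by SP and KLF factors), TGANTCA (the AP-1 site) and GGAATG (the TEAD site), and adjoining GC boxes merge into 1 run.
LAMB1, minus strand of chr7:108003162-108003411: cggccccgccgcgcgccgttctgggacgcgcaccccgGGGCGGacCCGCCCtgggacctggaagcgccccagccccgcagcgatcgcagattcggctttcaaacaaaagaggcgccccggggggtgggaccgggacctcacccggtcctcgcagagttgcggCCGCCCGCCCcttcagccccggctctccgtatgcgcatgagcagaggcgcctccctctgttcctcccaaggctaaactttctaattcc
LAMC1, plus strand of chr1:183023170-183023419: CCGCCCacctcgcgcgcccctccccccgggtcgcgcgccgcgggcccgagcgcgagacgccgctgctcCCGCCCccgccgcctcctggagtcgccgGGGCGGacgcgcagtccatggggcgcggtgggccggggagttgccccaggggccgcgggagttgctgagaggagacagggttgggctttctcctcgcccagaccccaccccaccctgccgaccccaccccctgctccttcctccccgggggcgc
ITGA5, minus strand of chr12:54419267-54419516: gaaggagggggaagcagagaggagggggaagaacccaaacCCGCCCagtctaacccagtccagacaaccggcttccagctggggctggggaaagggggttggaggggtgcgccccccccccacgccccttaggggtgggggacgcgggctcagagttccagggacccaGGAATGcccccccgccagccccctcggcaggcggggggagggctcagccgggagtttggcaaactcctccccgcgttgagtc
ITGB6, minus strand of chr2:160200273-160200522: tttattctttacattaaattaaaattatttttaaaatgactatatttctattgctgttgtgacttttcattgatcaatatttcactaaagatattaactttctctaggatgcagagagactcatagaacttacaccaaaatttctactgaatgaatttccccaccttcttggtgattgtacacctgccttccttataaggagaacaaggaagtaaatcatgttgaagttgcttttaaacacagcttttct
LAMA3, plus strand of chr18:23872770-23873019, at a start inside the gene: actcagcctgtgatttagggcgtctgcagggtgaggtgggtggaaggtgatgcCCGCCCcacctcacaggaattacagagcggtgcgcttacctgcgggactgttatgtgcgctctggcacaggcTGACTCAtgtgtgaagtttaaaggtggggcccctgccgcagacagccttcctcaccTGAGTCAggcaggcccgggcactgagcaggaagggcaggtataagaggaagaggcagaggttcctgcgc
LAMB1 held 4 and LAMC1 held 3 matches to GGGCGG, and GC made up 70.4% and 79.6% of their windows. The window of ITGB6 was 30% GC, with no CpG dinucleotide and none of the 3 motifs. LAMA3 was the 1 member of 26 with a match to TGANTCA, and it held 2. Over all 35116 promoters of the same length, 42.6% held GGGCGG, 6.57% held TGANTCA and 11.9% held GGAATG, and of the 26 members 13, 1 and 4 did. A match is a run of letters and not a shown site.

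Among the integrins, ITGB1, the common partner of most alpha subunits, was the highest at 35.9 RPKM on average. Its values were 346 and 540.4 CPM in WT NPC-P2, 713 and 858 in dKO NPC-P2, 339.7 and 397 in WT NPC-P4, 698 and 777 in dKO NPC-P4, 312 and 329 in WT-D28 and 452 and 517 in dKO-D28. The dKO pairs were above the WT pairs at all 3 stages without overlap, and the differences were 0.81 ± 0.17, adjusted p = 0.0248 at passage 2, 1.00 ± 0.17, adjusted p = 2.54e-04 at passage 4 and 0.60 ± 0.16, adjusted p = 0.00773 at day 28. Only the middle value passed the 2-fold threshold, and it lay on it. DESeq2 gave 0.98, and the value was 0.90 without WT NPC-P4 sample 1 and 0.92 without dKO NPC-P4 sample 2.

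The 3 laminin-binding alpha subunits differed from each other. ITGA6, which pairs with beta 1 or beta 4 and was the highest alpha subunit at 15.8 RPKM, had 86.2 and 99.1 CPM in WT NPC-P2, 99.8 and 83.4 in dKO NPC-P2, 129 and 150.2 in WT NPC-P4, 79.9 and 101 in dKO NPC-P4, 115 and 119 in WT-D28 and 100.4 and 103 in dKO-D28. All 12 values lie between 79.9 and 150.2 CPM, and ITGA6 was called in none of the 9 comparisons. Its largest difference was -0.63 ± 0.13, adjusted p = 9.88e-04 at passage 4, lower in dKO NPCs and under 2-fold. ITGA7, the laminin receptor of muscle, had 116 and 128 CPM in WT NPC-P2, 129.9 and 136 in dKO NPC-P2, 79.5 and 71.4 in WT NPC-P4, 206 and 190.1 in dKO NPC-P4, 53.5 and 51 in WT-D28 and 119 and 93.2 in dKO-D28. It was higher in dKO cells at passage 4 (1.39 ± 0.13, adjusted p = 2.26e-07) and at day 28 (1.02 ± 0.13, adjusted p = 4.01e-06), the latter on the 2-fold threshold and at 0.83 without dKO-D28 sample 1. In WT cells it fell to day 28 (-1.23 ± 0.14, adjusted p = 3.84e-06). ITGA3, a receptor for the alpha 5 laminins, had 57.4 and 68.6 CPM in WT NPC-P2, 93.1 and 105 in dKO NPC-P2, 23.1 and 27.2 in WT NPC-P4, 91.8 and 82.9 in dKO NPC-P4, 63.9 and 53.7 in WT-D28 and 68.4 and 88.8 in dKO-D28. The WT NPC-P4 pair stands below all other samples. ITGA3 was higher in dKO NPCs at passage 4 (1.79 ± 0.17, adjusted p = 3.12e-07), and at day 28 the difference was 0.42 ± 0.15. With the canonical transcript length ITGA7 and ITGAV stood above ITGA6, so the order of the alpha subunits rests on the length used.

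The collagen receptors ITGA1 and ITGA2, neighbours on chromosome 5, moved in opposite directions at passage 4. ITGA1 (ENSG00000213949, chr5:52787916-52959209) had 2.61 and 10.4 CPM in WT NPC-P2, 22.5 and 26.9 in dKO NPC-P2, 2.0 and 4.37 in WT NPC-P4, 109 and 132 in dKO NPC-P4, 3.6 and 3.62 in WT-D28 and 3.39 and 5.02 in dKO-D28. The dKO NPC-P4 pair was the highest by far, and the dKO NPC-P2 pair came second. The differences were 1.72 ± 0.42, adjusted p = 0.0355 at passage 2 and 5.17 ± 0.29, adjusted p = 7.20e-10 at passage 4, and at day 28 the groups overlapped (0.24 ± 0.35). The passage 2 call was lost without WT NPC-P2 sample 1 (1.24, adjusted p = 0.300), without dKO NPC-P2 sample 1 (1.84, adjusted p = 0.0831) and without dKO NPC-P2 sample 2 (1.58, adjusted p = 0.304). Exons of PELO and RPL17P21 on the same strand share 5.77% of the exonic bases of ITGA1. ITGA2 (ENSG00000164171, chr5:52989340-53094779) had 30 and 43.2 CPM in WT NPC-P2, 41.3 and 42.4 in dKO NPC-P2, 98.9 and 117 in WT NPC-P4, 32.3 and 33.4 in dKO NPC-P4, 22 and 26.4 in WT-D28 and 54.1 and 61.4 in dKO-D28. It rose in WT NPCs with passage (1.51 ± 0.19, adjusted p = 1.19e-05) and was lower in dKO than in WT NPCs at passage 4 (-1.72 ± 0.16, adjusted p = 1.88e-07). At day 28 the direction was the reverse, higher in dKO cells (1.25 ± 0.15, adjusted p = 3.21e-06).

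ITGA5 (ENSG00000161638, chr12:54395261-54419266, minus strand), the alpha subunit of the classical fibronectin receptor, had the largest fitted change of the 10 tested alpha subunits in WT cells, to day 28 and to passage 4. Its values were 45.7 and 44.7 CPM in WT NPC-P2, 63.8 and 80.6 in dKO NPC-P2, 6.35 and 10 in WT NPC-P4, 81.5 and 81.7 in dKO NPC-P4, 1.44 and 2.21 in WT-D28 and 38.3 and 45 in dKO-D28. The WT-D28 pair stands below every other sample, the WT NPC-P4 pair is next, and the dKO samples stay between 38.3 and 81.7 CPM. It fell by 4.58 on the log2 scale from WT NPC-P2 to WT-D28 (SE 0.28, adjusted p = 3.94e-09) and by 2.43 to WT NPC-P4 (SE 0.25, adjusted p = 2.25e-06). In dKO cells the fall to day 28 was below 2-fold (-0.79 ± 0.18, adjusted p = 0.0103). The difference of dKO over WT was 3.28 ± 0.21, adjusted p = 3.39e-09 at passage 4 and 4.47 ± 0.23, adjusted p = 3.31e-10 at day 28.

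ITGAV, the alpha subunit of the vitronectin receptors and of the integrins that activate latent TGF-beta, had 166 and 231 CPM in WT NPC-P2, 351 and 392 in dKO NPC-P2, 109.6 and 119 in WT NPC-P4, 154 and 173 in dKO NPC-P4, 53.2 and 52.1 in WT-D28 and 127 and 135 in dKO-D28. It fell to day 28 in both genotypes (-1.94 ± 0.14, adjusted p = 3.21e-08 in WT and -1.50 ± 0.13, adjusted p = 2.18e-06 in dKO cells), and dKO-D28 cells remained above WT-D28 cells (1.32 ± 0.13, adjusted p = 4.05e-07). Its beta partners followed separate courses. ITGB5, a vitronectin receptor subunit, had 66.6 and 73 CPM in WT NPC-P2, 81.8 and 97.6 in dKO NPC-P2, 140.0 and 138 in WT NPC-P4, 133 and 122 in dKO NPC-P4, 36.8 and 36.6 in WT-D28 and 97 and 92.6 in dKO-D28, and was higher in dKO cells at day 28 (1.37 ± 0.12, adjusted p = 5.64e-08) but not at passage 4 (-0.12 ± 0.11). ITGB8, which neural progenitors use to activate latent TGF-beta, had 88.8 and 87.2 CPM in WT NPC-P2, 63.8 and 53 in dKO NPC-P2, 167 and 221 in WT NPC-P4, 32.8 and 37.5 in dKO NPC-P4, 45.5 and 47.2 in WT-D28 and 60.1 and 42.6 in dKO-D28. The WT NPC-P4 pair was the highest and the dKO NPC-P4 pair the lowest, a difference of -2.47 ± 0.17, adjusted p = 9.41e-09. At day 28 ITGB8 did not pass the test (0.14 ± 0.17, adjusted p = 0.497).

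ITGB6 (ENSG00000115221, chr2:160099667-160200313, minus strand), the epithelial subunit that activates latent TGF-beta with alpha V, was at 0 counts in all 6 WT samples. In dKO-D28 cells it reached 42.4 and 48.2 CPM (175 and 250 counts), in dKO NPC-P4 3.28 and 5.4 CPM (14 and 22 counts) and in dKO NPC-P2 0 and 2.12 CPM (0 and 3 counts). Against the floor of 3 counts per library it was at least 126-fold higher in dKO-D28 than in WT-D28 cells (adjusted p = 7.92e-09) and at least 4.33-fold higher in dKO than in WT NPC-P4 (adjusted p = 2.63e-04). From dKO NPC-P2, with 3 counts in all, to dKO-D28 the ratio was 41.8 (exact 95% interval of the counts 14.2 to 204, adjusted p = 2.86e-05). An unnamed gene on the same strand shares 16.7% of its exonic bases. ITGB6 was 28% and 32.9% of the summed RPKM of the beta partners of alpha V other than beta 1 in dKO-D28 cells.

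ITGB4, which pairs only with alpha 6 and forms the hemidesmosomes of epithelium, had 1.31 and 0.745 CPM in WT NPC-P2, 0 and 0 in dKO NPC-P2, 10.7 and 11.8 in WT NPC-P4, 4.22 and 4.17 in dKO NPC-P4, 4.32 and 3.62 in WT-D28 and 22.3 and 41.9 in dKO-D28. Both dKO NPC-P2 samples were at 0 counts and each WT NPC-P2 sample held 1 count. The dKO-D28 pair was the highest, above WT-D28 cells (3.02 ± 0.29, adjusted p = 4.07e-07) and at least 14.2-fold above dKO NPC-P2. At passage 4 the direction was the reverse, lower in dKO NPCs (-1.42 ± 0.36, adjusted p = 0.00413). WT NPC-P4 stood 11.9-fold above WT NPC-P2 (exact 95% interval of the counts 3.20 to 100.3, adjusted p = 0.00143), a call lost without WT NPC-P2 sample 2 (adjusted p = 0.0562). From dKO NPC-P2 to dKO NPC-P4 ITGB4 was at least 1.86-fold higher (adjusted p = 0.00727), lost without either dKO NPC-P2 sample (adjusted p = 0.0641 and 0.0647).

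The epithelial markers moved with ITGB6 and ITGB4 at day 28. The 6 markers (EPCAM, CDH1, KRT8, KRT18, KRT5 and KRT14) summed to 693 and 1233 CPM in dKO-D28, 507 and 492 in dKO NPC-P4, 366 and 426 in dKO NPC-P2, 64 and 159.5 in WT NPC-P2, 23.7 and 20.5 in WT NPC-P4 and 22.8 and 21.9 in WT-D28 samples. KRT5 and KRT14 were at 0 in all 3 WT groups, and KRT14 was also at 0 in both dKO NPC groups. Of the 4 markers tested, 4 were called higher in dKO cells at day 28 and 3 at passage 4. Over all tested genes 12.4% and 11% were called higher there. At passage 4 ITGB4 (-1.42 ± 0.36) and LAMA3 (-2.25 ± 0.41) were lower in dKO NPCs, while the sum of these markers was higher. The part of these markers in the integrin and laminin values was not tested.

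The remaining integrins were low. ITGA9, a receptor for tenascin-C and VCAM1, had 3.92 and 3.73 CPM in WT NPC-P2, 2.25 and 4.24 in dKO NPC-P2, 5.01 and 5.65 in WT NPC-P4, 7.73 and 5.15 in dKO NPC-P4, 4.68 and 2.92 in WT-D28 and 5.33 and 13.1 in dKO-D28. It was called at day 28 (1.32 ± 0.37, adjusted p = 0.00665), where only dKO-D28 sample 2 stood apart, and without that sample the difference was 0.51, adjusted p = 0.299. Without WT-D28 sample 2 the adjusted p was 0.0969. The antisense gene ITGA9-AS1 overlaps 9.23% of its exonic bases. ITGA2B, the platelet fibrinogen receptor subunit, had 20.9 and 10.4 CPM in WT NPC-P2, 7.51 and 4.95 in dKO NPC-P2, 3.67 and 4.37 in WT NPC-P4, 4.92 and 3.92 in dKO NPC-P4, 7.56 and 5.43 in WT-D28 and 8.48 and 5.4 in dKO-D28. It fell in WT cells to day 28 (-1.18 ± 0.38, adjusted p = 0.0192) and to passage 4 (-1.84 ± 0.44, adjusted p = 0.0036). Both calls were lost without WT NPC-P2 sample 1 (-0.69 with adjusted p = 0.266 and -1.36 with adjusted p = 0.0637), and the day 28 call also without WT-D28 sample 2 (adjusted p = 0.109). ITGAE, known from lymphocytes of the gut epithelium, lay between 9.02 and 20.9 CPM in the 12 samples and was called in none of the 9 comparisons.

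The 14 members below the filter were ITGA4, ITGA8, ITGA10, ITGA11, ITGAD, ITGAL, ITGAM, ITGAX, ITGB2, ITGB3, ITGB7, LAMB3, LAMB4 and LAMC3. In a fit with no filter beyond 1 count in any sample, 13 of the 14 could be tested. There 7 were higher in dKO NPCs at passage 4 (ITGA4, ITGA8, ITGA10, ITGA11, ITGAM, LAMB3 and LAMC3), where 6.3% of all genes in that fit were called higher and 5.79% lower. At passage 2, 1 was higher (ITGA4), where 0.649% were, and at day 28, 2 were higher (ITGA4 and LAMC3) and 1 lower (ITGA11), where 7.64% and 7.1% were. ITGAM, a leukocyte subunit, held 13 and 11 counts in dKO NPC-P4 (3.05 and 2.7 CPM) and at most 1 in any other sample. ITGA8, ITGA10, LAMB3 and LAMC3 did not exceed 7.26 CPM. The leukocyte subunits ITGAL, ITGAX, ITGB2 and ITGB7 did not exceed 1.45 CPM in any sample, and ITGAD was at 0 in all 12. ITGA4, a receptor for fibronectin and VCAM1 that neural crest cells also carry, was the highest of the 14 by its counts in dKO NPCs, with 3.92 and 5.96 CPM in WT NPC-P2, 13.5 and 24 in dKO NPC-P2, 0.668 and 0.514 in WT NPC-P4, 15.2 and 16.7 in dKO NPC-P4, 0.36 and 0.201 in WT-D28 and 4.12 and 2.7 in dKO-D28. In that fit ITGA4 was higher in dKO cells at passage 2 (1.87 ± 0.49, adjusted p = 0.0110), passage 4 (4.67 ± 0.53, adjusted p = 2.74e-17) and day 28 (3.42 ± 0.59, adjusted p = 5.86e-08). CERKL on the other strand overlaps 26.4% of its exonic bases. ITGA11, a collagen receptor of mesenchyme, had 1.31 and 2.24 CPM in WT NPC-P2, 8.26 and 9.9 in dKO NPC-P2, 1.67 and 2.05 in WT NPC-P4, 13.6 and 12 in dKO NPC-P4, 2.64 and 3.82 in WT-D28 and 0.485 and 0.772 in dKO-D28, and in that fit it was higher in dKO cells at passage 4 (2.72 ± 0.44, adjusted p = 1.51e-08) and lower at day 28 (-2.34 ± 0.56, adjusted p = 2.17e-04).

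**Figure D4:**
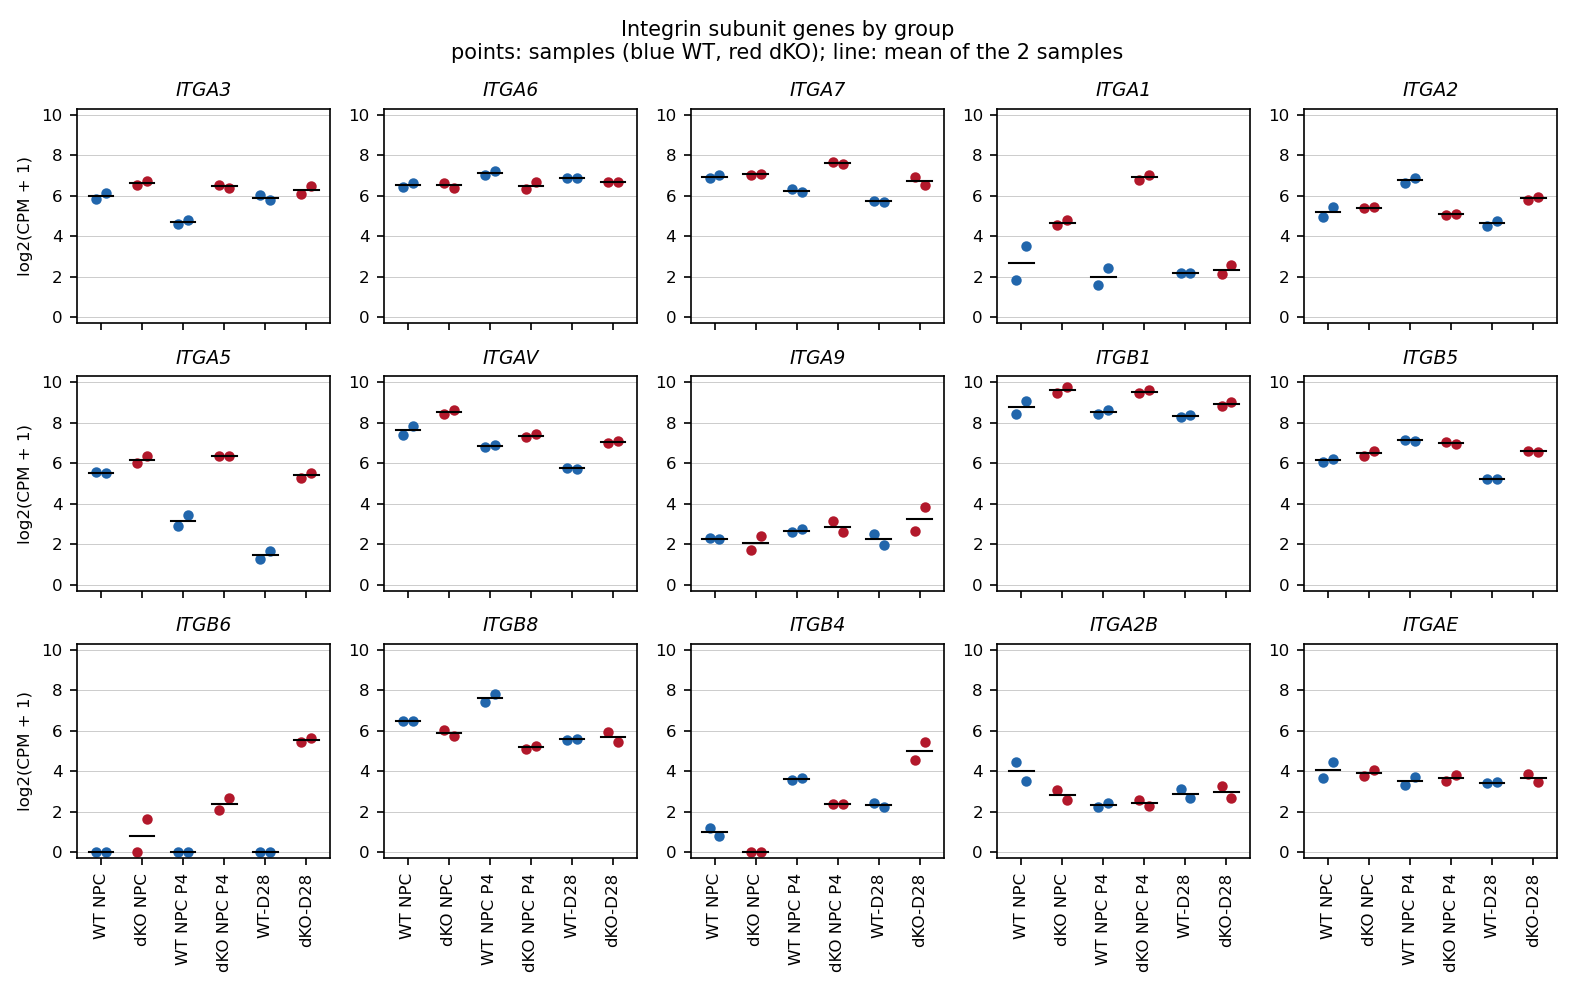
Expression of the 15 tested integrin subunit genes as log2(CPM + 1) (y axis) in the 6 groups (x axis), with 1 point per sample and a line at the mean of the pair. ITGA5 falls in the WT groups and stays between 38.3 and 81.7 CPM in the dKO groups, ITGA1 peaks in dKO NPC-P4, ITGB6 leaves 0 only in dKO samples, and ITGA6 lies between 79.9 and 150.2 CPM across all 6 groups.

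Over 28 days of differentiation more members fell than rose in WT cells. In WT-D28 against WT NPC-P2, 7 of 23 members fell and 1 rose, where 11.3% of all tested genes were called lower and 12.3% higher. Those that fell were the laminin chains LAMA1, LAMB1 and LAMC1 and the alpha subunits ITGA2B, ITGA5, ITGA7 and ITGAV, and LAMA4 rose. In dKO-D28 against dKO NPC-P2, 3 fell (ITGA1, ITGAV and LAMA4) and 3 rose (ITGB4, ITGB6 and LAMA3), where 2.5% of all tested genes were called in each direction. The LAMA3 call was lost without dKO-D28 sample 1, without either dKO NPC-P2 sample and in DESeq2 (2.30, adjusted p = 0.103). The median log2 change of the members was -0.65 in WT and -0.19 in dKO cells, beside 0.04 and 0.01 for all genes. Tested as the difference between the genotypes, the change to day 28 was more positive in dKO cells for 6 members (ITGA2, ITGA5, ITGB4, ITGB5, LAMA1 and LAMB1) and more negative for LAMA4, where 10.7% of all tested genes were called in the first direction and 9.48% in the second. For LAMA1 this difference was 3.74 ± 0.16, adjusted p = 2.00e-10, for ITGA5 3.79 ± 0.33, adjusted p = 6.02e-07 and for LAMA4 -3.02 ± 0.39, adjusted p = 2.85e-05.

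**Figure D5:**
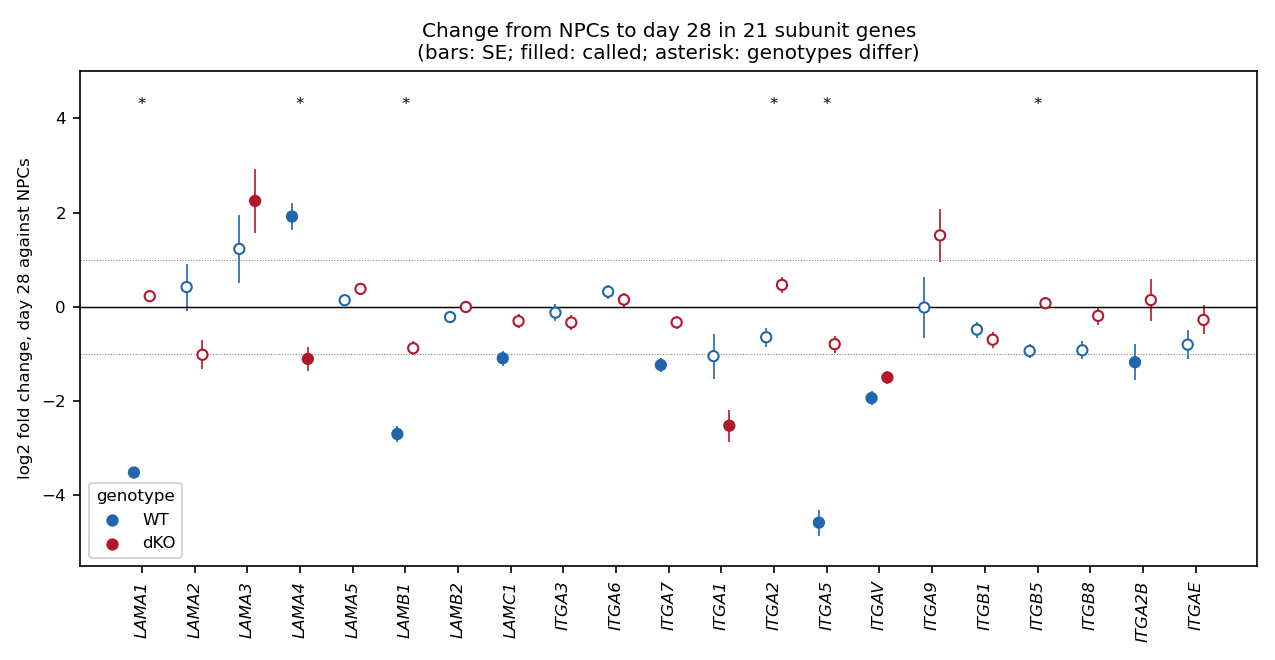
Log2 fold change from NPC-P2 to day 28 (y axis, log2 scale) in WT (blue) and dKO cells (red) for 21 tested subunit genes (x axis). Bars are standard errors, filled symbols are called genes and asterisks mark genes whose change differed between the genotypes. LAMA1 lies at -3.52 in WT and 0.23 in dKO cells, and ITGA5 at -4.58 and -0.79. LAMA4 moves up in WT and down in dKO cells. ITGB4 and ITGB6 are left out because a group has 0 counts.

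Members also moved with passage in WT NPCs, in both directions. From passage 2 to passage 4, 6 members rose (ITGA2, ITGB4, ITGB8, LAMA2, LAMA3 and LAMA4) and 5 fell (ITGA2B, ITGA3, ITGA5, LAMA1 and LAMB1), where 9.57% of all tested genes were called higher and 8.93% lower. Of these, ITGB8 was at 0.93 without WT NPC-P4 sample 2, LAMA3 lost its call without WT NPC-P2 sample 2 (adjusted p = 0.0844) and LAMA2 without WT NPC-P2 sample 1 (adjusted p = 0.0887). In dKO NPCs 3 rose (ITGA1, ITGB4 and LAMA4) and 1 fell (ITGAV, -1.18 ± 0.13, adjusted p = 1.50e-05), where 3.61% and 4.37% were called. The ITGB4 call rests on 0 counts in dKO NPC-P2. Against the floor of 3 counts its rise is bounded only at 1.86-fold, under the 2-fold threshold. ITGA1 rose by 2.28 ± 0.24, adjusted p = 1.09e-05 in dKO NPCs. The change with passage differed between the genotypes for 9 members, more positive in dKO NPCs for ITGA1, ITGA3, ITGA5, ITGA7, LAMA1, LAMA5 and LAMB1 and more negative for ITGA2 and ITGB8, where 7.61% and 7.71% of all tested genes were called. The largest was ITGA1 (3.45 ± 0.62, adjusted p = 8.04e-04), lost without WT NPC-P2 sample 2 (1.94, adjusted p = 0.318), and ITGA5 followed (2.60 ± 0.31, adjusted p = 1.95e-05). Without WT NPC-P2 sample 2 the count of 7 was 4. The passage 2 samples serve in the genotype, passage and day 28 comparisons alike, so these comparisons are not independent of each other.

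Neuron and astrocyte markers changed in the same WT groups. The 8 neuron markers summed to 3534 and 3535 CPM in WT-D28 and 4212 and 4758 in WT NPC-P4, against 1453 and 1282 in WT NPC-P2 and between 665 and 1270 CPM in the 6 dKO samples. The 6 astrocyte markers summed to 419.7 and 417 CPM in WT-D28, 2019 and 2234 in WT NPC-P4, 136 and 105 in WT NPC-P2 and between 33.2 and 53.3 CPM in dKO samples. The 9 mesenchyme markers were highest in dKO NPC-P4, at 1750.4 and 1775 CPM, the group in which ITGA1 and ITGA11 peaked. They summed to 258 and 270.4 CPM in WT NPC-P4, 907 and 1100 in dKO NPC-P2 and 162 and 404 in WT NPC-P2. At day 28 they summed to 447 and 310 CPM in dKO and 209 and 223 in WT cells. There ITGA1 was not called (0.24 ± 0.35), and in the fit with no filter beyond 1 count ITGA11 was lower in dKO cells (-2.34 ± 0.56). The 6 neural crest markers summed to 24.2 and 117 CPM in dKO-D28 samples, the pair in which ITGA9 was uneven, and to 2.64 and 1.81 in WT-D28. They had 58.3 and 57.6 CPM in dKO and 10.4 and 8.48 in WT NPC-P4, where ITGA9 was not called (0.27 ± 0.43). At passage 2 they had 30 and 14.9 CPM in dKO and 9.14 and 15.7 in WT NPCs. The 6 endothelial markers summed to 60.1 and 67.2 CPM in dKO and 26.1 and 36.5 in WT NPC-P2. At passage 4 they had 94.4 and 97.6 CPM in dKO and 5.01 and 5.65 in WT NPCs. At day 28 they had 26.4 and 19.5 CPM in dKO and 4.2 and 3.62 in WT cells. The 1 tested was called higher in dKO cells at passage 2 (1.01), passage 4 (4.77) and day 28 (4.59). The 8 leukocyte and platelet markers summed to at most 3.05 CPM, and the 6 Schwann cell and oligodendrocyte markers to between 19.1 and 50.9 CPM. The part of these cell types in the integrin and laminin values was not tested.

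Laminin is joined in the basement membrane by nidogens, perlecan, agrin and collagens. Of 19 such partners tested, 1 was higher at passage 2 (FBLN1, 1.45 ± 0.18), 12 higher and 1 lower at passage 4, and 11 higher and 2 lower at day 28, with medians of 0.38, 1.31 and 1.33. Over all tested genes 0.981% were higher at passage 2, 11% higher and 11.1% lower at passage 4, and 12.4% higher and 11.7% lower at day 28. COL18A1, the collagen that releases endostatin, had 204 and 273 CPM in WT NPC-P2, 352 and 353 in dKO NPC-P2, 47.4 and 43.4 in WT NPC-P4, 527 and 501 in dKO NPC-P4, 30.2 and 28 in WT-D28 and 342 and 511 in dKO-D28. The WT-D28 pair lay lowest, and COL18A1 was 3.50 ± 0.19, adjusted p = 2.53e-09 at passage 4 and 3.88 ± 0.18, adjusted p = 7.81e-10 at day 28. At passage 4 COL4A6, a type IV collagen chain, was also higher (2.92 ± 0.16), and at day 28 NID1, the nidogen that links laminin to collagen, was higher (2.72 ± 0.35). NTN1, the netrin that guides axons, was lower in dKO cells at passage 4 (-1.17 ± 0.17) and at day 28 (-3.17 ± 0.13).

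Of 27 tested ligands of integrins other than laminin, 9 were higher at passage 2, 15 higher and 5 lower at passage 4, and 14 higher and 8 lower at day 28, with medians of 1.02, 1.54 and 1.04, beside the same shares of all genes (0.981%, then 11% and 11.1%, then 12.4% and 11.7%). ICAM1, a ligand of the leukocyte integrins, had 5.22 and 5.22 CPM in WT NPC-P2, 24.8 and 25.5 in dKO NPC-P2, 0.334 and 0.514 in WT NPC-P4, 99.1 and 112 in dKO NPC-P4, 0.60 and 0.201 in WT-D28 and 34.9 and 25.3 in dKO-D28. It was higher in dKO cells at all 3 stages (2.26 ± 0.39, 7.82 ± 0.34 and 6.17 ± 0.31). The collagen COL1A2 was higher at passage 2 (1.82 ± 0.22), COL1A1 at passage 4 (4.39 ± 0.50) and COL2A1, the cartilage and notochord collagen, at day 28 (6.48 ± 0.16). Lower in dKO cells were TNR, the tenascin of brain matrix (-4.83 ± 0.59 at passage 4 and -5.72 ± 0.54 at day 28), and VCAM1, a ligand of ITGA4 and ITGA9 (-4.11 ± 0.40 and -3.34 ± 0.34).

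Of 31 intracellular adaptors and kinases tested, 5 were higher at passage 2, 5 higher and 2 lower at passage 4, and 4 higher and 3 lower at day 28, with medians of 0.49, 0.27 and -0.02. The passage 4 and day 28 counts are close to those shares of all genes (11% higher and 11.1% lower, and 12.4% and 11.7%), and at passage 2 the share was 0.981%. ACTN1, the alpha actinin that ties integrins to actin, was higher at passage 2 (1.29 ± 0.21) and passage 4 (1.22 ± 0.20). At day 28 TGFB1I1, a paxillin relative, was lower (-1.34 ± 0.22). FYN, a kinase that acts below integrins, was lower at passage 4 (-1.45 ± 0.11). Among 19 other laminin receptors and the enzymes that glycosylate dystroglycan, 2 were higher at passage 2, 5 higher and 2 lower at passage 4, and 4 higher and 3 lower at day 28. The lower calls are close to the 11.1% and 11.7% over all genes, and the higher calls stand beside 0.981%, 11% and 12.4%. The syndecan SDC4 was higher in dKO cells at passage 4 (3.61 ± 0.32) and day 28 (3.88 ± 0.26), and the hyaluronan receptor CD44 was lower at passage 4 (-2.36 ± 0.19).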

How the data were processed

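The authors extracted RNA with TRIzol, prepared libraries with the Illumina TruSeq kit, aligned reads to hg38 with HISAT2 2.0.4 and counted them per Ensembl gene with SAMtools 1.3.1 and HTSeq 0.6.0. The deposited values are raw counts for 58302 genes in 12 samples. The annotation release and strand setting are not given in the sources used here. Symbols, coordinates and exonic lengths came from GENCODE 44, which held 98.7% of the genes and 99.8% of the counts. Counts were normalized with TMM and tested in R 4.3.3 with edgeR 4.0.16 (quasi-likelihood, robust), as 6 group means fitted to 13454 genes whose mean count reached 20. Genes were called at a Benjamini-Hochberg adjusted p below 0.05 and a fold change above 2, where the study used an unadjusted p after EDASeq and DESeq. A value written as x ± y is a log2 fold change with its standard error, dKO over WT, later over earlier, or the difference of dKO and WT changes. With 2 against 2 samples an exact permutation p cannot go below 0.333. Alternatives were DESeq2 1.42.0, other scalings, filters and thresholds, GC and length correction, a replicate block, and leaving out each sample. The fit was tested on simulated data. Motifs were searched in RefSeq promoters of GRCh38.p14. Values in every sample are given for members called in at least 1 comparison or among the 5 highest per length of their class, and up to 2 genes per list and direction are named. The ITGA4, ITGA11 and ITGAM values were added after they were seen. The members and lists were chosen with earlier results of these data known. A further gene that meets the rule for members and a gene of one list are not reported here.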

Additional observations from a re-analysis of the deposited data

Results flagged for a closer look

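With 2 samples per group, no sample can be tested as standing apart from its group. The results given here are those in which the effect of the knockout differed between stages, by the edgeR test of that difference itself. Values are log2 fold changes with standard errors, positive where the dKO change is the more positive one. Between day 28 and passage 2 the knockout effect differed by 3.79 ± 0.33 for ITGA5, 3.74 ± 0.16 for LAMA1, 1.82 ± 0.22 for LAMB1, 1.11 ± 0.27 for ITGA2, 1.01 ± 0.19 for ITGB5 and -3.02 ± 0.39 for LAMA4. The fitted value for ITGB4, 7.99 ± 2.57, rests on 0 counts in dKO NPC-P2 and is no bound. Single samples bore on some of these: without WT NPC-P2 sample 2, ITGA2 was at 0.78 (adjusted p = 0.121) and ITGB5 at 0.93, ITGA2 was at 0.98 without WT-D28 sample 1 and at 0.92 with correction for GC content and gene length, ITGB5 was at 0.98 without dKO-D28 sample 1 and at 0.89 without dKO NPC-P2 sample 1, and the ITGB4 call was lost without any 1 of the 4 passage 2 samples.

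Between passage 4 and passage 2 the knockout effect differed by 3.45 ± 0.62 for ITGA1, 2.60 ± 0.31 for ITGA5, 2.05 ± 0.16 for LAMA1, 1.67 ± 0.22 for LAMB1, 1.28 ± 0.20 for ITGA7, 1.15 ± 0.26 for ITGA3, 1.15 ± 0.17 for LAMA5, -1.86 ± 0.27 for ITGA2 and -1.88 ± 0.27 for ITGB8. ITGA5, LAMA1 and LAMB1 were positive in both contrasts, which share the passage 2 samples. ITGA2 was positive in the first and negative in the second. Without WT NPC-P2 sample 2, ITGA1 was at 1.94 (adjusted p = 0.318), ITGA3 at 1.00 (adjusted p = 0.0537) and LAMA5 at 0.92, and correction for GC content and gene length took ITGA3 to 0.96 and LAMA5 to 0.93, below 2-fold.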

How the results depend on the processing

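Single members were followed under alternatives for the 76 pairs of member and comparison called in the main fit. Pairs not called there were left out, as were settings in which the member was not tested. Of the 947 values, 882 kept their direction and their side of the threshold, 65 kept their direction only and 0 reversed. In DESeq2 and with total-count scaling, no count of members moved by over 1.5 times. Total counts shifted the median of all genes by up to 0.193. With them the share of all calls that were higher went from 49.8% to 59.9% at passage 4. For genotype by passage it went from 49.7% to 63.7%, and none of the called pairs reversed. Asking for at least 10 counts in every sample, which leaves fewer members to test, gave 1 higher at passage 2, 8 higher and 2 lower at passage 4, 7 higher and 0 lower at day 28, 0 higher in WT-D28 and 0 higher and 1 lower in dKO-D28 against NPC-P2, 3 higher in WT and 0 higher in dKO NPCs with passage, and 4 more positive and 0 more negative for genotype by differentiation. Asking for at least 1 count in any sample gave 5 higher at passage 2, 2 lower at day 28, 2 higher in WT-D28, 5 lower in dKO-D28, 6 higher in dKO NPCs with passage and 3 more negative for genotype by differentiation. With no fold threshold there were 8 higher and 1 lower at passage 2, 12 lower in WT-D28, 6 lower in dKO-D28, 9 lower in WT NPCs and 7 higher and 3 lower in dKO NPCs with passage. An unadjusted p gave 1 lower at passage 2, 2 higher in WT-D28 and 3 more negative for genotype by differentiation, and a fit of only the samples compared gave 2 higher in WT-D28. Correction for GC content and gene length gave 2 more negative for genotype by differentiation. Leaving out each sample gave 0 to 7 higher at passage 2, 2 to 3 higher in dKO-D28 against dKO NPC-P2, 4 to 8 more positive and 1 to 3 more negative for genotype by differentiation, and 4 to 8 more positive for genotype by passage. The number of all genes called moved with the settings as well. At passage 2 it was 132 higher and 67 lower of 13454 in the main fit. It was 240 and 133 with no fold threshold and 349 and 246 with an unadjusted p. With at least 10 counts in every sample it was 85 and 53 of 9967, and with at least 1 count in any sample 227 and 124 of 34982. Leaving out a passage 2 sample moved it too. Where a sample was left out, its partner was assumed to vary like the other groups. Samples share only a replicate number: deviations of same-numbered samples correlated at 0.018 on average (-0.058 to 0.194 over 15 pairs of groups). The replicate block gave 2 instead of 1 more negative for genotype by differentiation, also together with the GC and length correction (2), and changed no other count. Passage 2 libraries were the shallowest, and members under 3.92 CPM there cannot be told from 0 in the smallest. The other causes of these shifts were not tested.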
